A study of Mus musculus with 12 samples.

Results

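The nuclear genes of respiratory complexes II to V were followed through 4 groups of mouse RNA libraries labelled as dorsal root ganglion neuron. They were chosen by symbol: every gene whose symbol starts with Sdha, Sdhb, Sdhc, Sdhd, Uqcr, Atp5 or Cox4 to Cox8, plus Cycs and Cyc1, with pseudogenes left out. This took 50 of the 9073 genes in the deposited count table, and 48 of the 50 were among the 8312 genes that passed a filter on low counts. Cox4i2 and Cox6a2 did not pass it. The rule also takes 4 gene IDs that the table does not list (Cox7b2, Cox8b, Cox8c and another ID named Atp5o). Complex II was represented by 8 genes, complex III by 9, cytochrome c by 1, complex IV by 15 and complex V by 17.

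All 4 groups carried the genotype written RPL22HA+/+;Advillin-Cre+ in the labels. In these RiboTag mice, Cre driven by the Advillin gene, a sensory neuron gene, switches the ribosomal protein Rpl22 to a form with an HA tag, so that ribosomes of tagged cells and the RNA they hold can be pulled down with an anti-HA antibody. The source is labelled as adult dorsal root ganglion (DRG) neuron. The groups were Input and anti-HA immunoprecipitate (IP), each prepared after either AAV-control or AAV-shGpr151, a virus carrying a hairpin against Gpr151, a G protein-coupled receptor gene. The series design speaks of cultured neurons from mice with an earlier sciatic nerve injury, which all groups then share, whereas the extraction protocol speaks of fresh ganglia, and which of these holds for the tagged libraries is not given. The labels do not say whether the 3 samples of a group came from separate animals or cultures, nor which promoter drives the hairpin.

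The respiratory chain moves electrons to oxygen and stores the energy as a proton gradient across the inner mitochondrial membrane. Complex II (succinate dehydrogenase) feeds electrons from succinate into the quinone pool and is encoded only in the nucleus. Complex III passes them to cytochrome c, complex IV (cytochrome c oxidase) passes them to oxygen, and complex V (ATP synthase) lets protons flow back to make ATP. Complexes III, IV and V also hold subunits made from mitochondrial DNA, so their nuclear genes encode the partners of those subunits. DRG neurons have very long axons, and mitochondria supply much of the ATP that axonal transport and regrowth use. In this table the complex V genes carry older symbols: Atp5a1 and Atp5b for the alpha and beta subunits of the F1 head, Atp5c1, Atp5d and Atp5e for the gamma, delta and epsilon subunits of the central stalk, Atp5f1 for subunit b of the peripheral stalk, and Atp5g1, Atp5g2 and Atp5g3 for subunit c of the membrane ring.

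Transcription of many nuclear respiratory genes is known to involve the factors NRF1 and GABP, so the members' promoters were searched for the core letters of their sites. A promoter sequence was matched by symbol for 39 of the 50 members (RefSeq, GRCm38.p6, a build other than the one of the count files). Only the 250 bases before the annotated start were searched, on both strands, and overlapping matches of different motifs were allowed. The NRF1 core CGCATGCG was present in 6 of 39 members (15.4%) and in 406 of 17491 protein-coding genes (2.32%). The 6 stretches are shown because they are the members that carry these letters, with the core in capitals and the flanking bases in lower case, 5′ to 3′ on the minus strand, where all 6 genes lie. Each line names the gene, and coordinates follow after the sequences.
Cycs: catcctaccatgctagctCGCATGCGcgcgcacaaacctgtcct
Cox6a1: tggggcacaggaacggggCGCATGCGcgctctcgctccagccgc
Atp5g2: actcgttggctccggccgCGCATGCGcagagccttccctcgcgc
Atp5j: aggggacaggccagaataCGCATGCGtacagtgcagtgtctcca
Atp5k: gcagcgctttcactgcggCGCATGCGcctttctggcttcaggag
Atp5l: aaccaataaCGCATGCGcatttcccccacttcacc

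In the same order, the stretches lie at chr6:50566605-50566648 for Cycs, chr5:115349094-115349137 for Cox6a1, chr15:102671063-102671106 for Atp5g2, chr16:84835098-84835141 for Atp5j, chr5:108434423-108434466 for Atp5k and chr9:44920958-44920992 for Atp5l. The core ended 53 bases before the annotated start in Cycs, 153 in Cox6a1, 33 in Atp5g2, 139 in Atp5j, 41 in Atp5k and 233 in Atp5l. The 6 genes serve different places in the chain: the mobile electron carrier (Cycs), cytochrome oxidase (Cox6a1), the c ring (Atp5g2), the peripheral stalk (Atp5j) and the membrane part of ATP synthase (Atp5k and Atp5l). The letters CCGGAAG, the core bound by ETS factors such as GABPA, were found in 11 members (28.2%) against 10.2% of genes. The GC box letters GGGCGG were found in 15 members (38.5%) against 45.8% of genes, and ATGGCGGC, bound by YY1, in 1 member (2.56%) against 1.41%. These matches describe letters in the window and not binding.

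The 12 columns held between 1094523 and 2111544 counts each. Columns of one group agreed almost to counting noise, with a chi-square per degree of freedom over all genes of 0.980 to 1.05 in 12 pairs, against 1.80 to 156 in the 54 pairs across groups. The 3 columns were therefore added up and a group was treated as a single sample, with 6332991 counts for Input control, 6148538 for Input labelled shGpr151, 4245486 for IP control and 3285258 for IP labelled shGpr151. Intervals are 95% and cover counting error only, and no difference has a replicate check. The targeted gene, Gpr151, had 24 counts in Input control and 13 in Input labelled shGpr151, and 314 and 250 in the corresponding IP libraries. Its log2 ratio was -0.86 in Input (interval -1.96 to 0.17) and -0.00 in IP (-0.25 to 0.24), so a lower level of the target was not seen in IP and was not resolved in Input, and the hairpin libraries are named by their label throughout. Of 18 sensory neuron markers, 17 were in the table (Trpv1 was not), and all 17 were higher in IP than in Input beyond counting error in control libraries and 16 in those labelled shGpr151 (Avil was at 0.10, interval -0.22 to 0.42).

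The members took 4.53% of all counts in Input control, 4.55% in Input labelled shGpr151, 4.27% in IP control and 4.02% in IP labelled shGpr151. Complex II had a small part in every library, 0.0285% and 0.0353% in the Input pair and 0.110% and 0.103% in the IP pair. The complex III share was lower in IP, at 0.453% and 0.416%, than in Input, at 0.654% and 0.623%. Complexes IV and V stayed within a narrow band, 1.87% to 2.10% for complex IV and 1.55% to 1.75% for complex V. Thus the member sums of complexes IV and V differed little between libraries on this scale. Single genes differed more, as the plot of CPM (counts scaled to a common library total) by column shows. The complex V sum leaves out Usmg5, an ATP synthase gene whose symbol the rule does not take. Usmg5 had 4635 and 4231 CPM in the Input pair and 1794 and 1642 in the IP pair (control first).

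**Figure D1:**
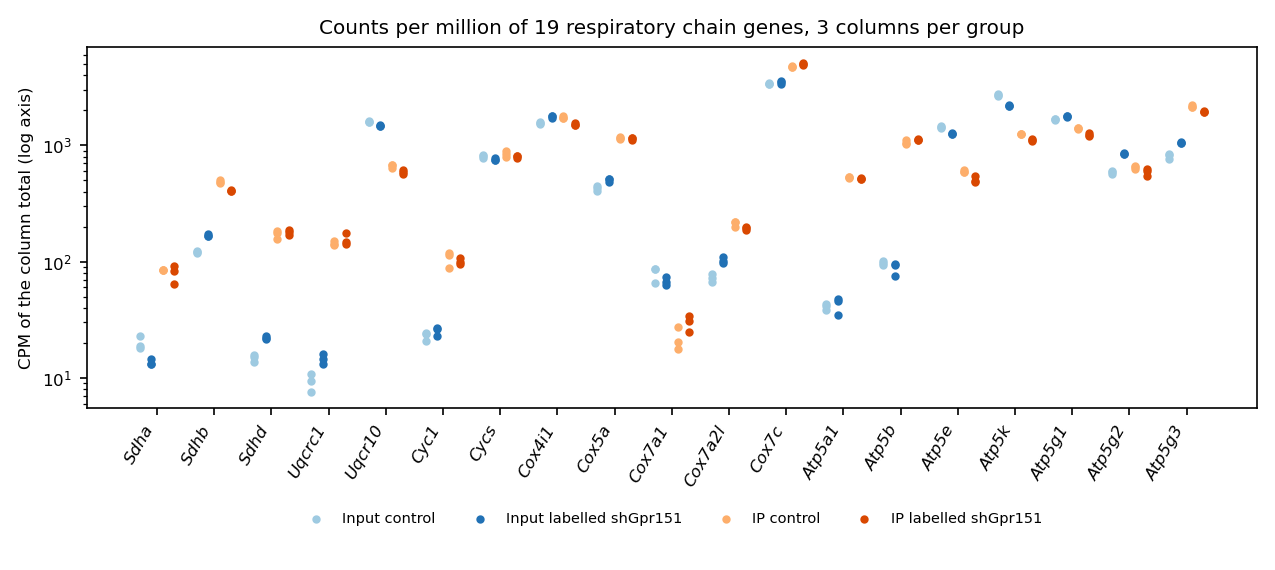
CPM of the column total on a log axis for 19 members; each point is 1 of the 3 columns of a group, in light blue for Input control, dark blue for Input labelled shGpr151, orange for IP control and red for IP labelled shGpr151. The columns of a group lie close together, and the IP columns lie above the Input columns for genes such as Uqcrc1 (144 CPM in IP control, 9.32 in Input control) and below them for Uqcr10 (659 against 1602).

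IP and Input differed in composition, and the scale on which they are compared sets the sign of many ratios. The TMM scaling used here, which takes most genes as unchanged, placed IP/Input log2 ratios 2.17 (control) and 2.19 (labelled shGpr151) lower than ratios on library totals. The median gene had 108 counts in IP control and 32 in Input control, although the Input library was the deeper one. The median of all tested genes was then 0.06 in the control libraries and 0.10 in those labelled shGpr151. The order of the genes, and the difference between any 2 of them, does not depend on this scale. Ratios are therefore given beside the same values for all genes, and the differences within a complex come first.

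Genes of the large core subunits of complex III, and of the F1 head of complex V, had far higher IP/Input ratios than genes of the small accessory subunits. In the control libraries the median log2 IP/Input ratio of the 4 core genes of complex III was 0.76 and that of its 5 supernumerary genes was -2.85, a difference of 3.61, and in the libraries labelled shGpr151 the difference was 3.55. In complex V, the 2 genes of the F1 head had a median of 1.39 and the 4 genes of the membrane supernumerary subunits -3.01, a difference of 4.40, which was 4.44 in the libraries labelled shGpr151. The other groups of complex V genes had control medians between these: -0.55 for the central stalk, -1.88 for the peripheral stalk, -2.02 for the c ring, and 0.15 for Atp5s alone. These role groups were formed after the values had been seen and are a description. Transcript length was not analysed here.

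Among the core genes of complex III, Uqcrc1, a scaffold subunit facing the matrix, had 23, 20 and 16 counts in the Input control columns, 30, 33 and 27 in Input labelled shGpr151, 214, 198 and 200 in IP control and 161, 193 and 156 in IP labelled shGpr151. The IP columns were far above the Input columns although their totals were smaller. Its log2 IP/Input ratio was 1.78 in control libraries (interval 1.39 to 2.19) and 1.21 in those labelled shGpr151 (0.89 to 1.55). Its partner Uqcrc2 had 19, 15 and 23 counts in Input control, 21, 17 and 15 in Input labelled shGpr151, 141, 145 and 122 in IP control and 101, 107 and 105 in IP labelled shGpr151, with ratios of 1.24 (0.84 to 1.67) and 1.27 (0.85 to 1.72). Both scaffold genes were thus on the IP side in both treatments. The catalytic genes sat nearer to 0: Cyc1, the cytochrome c1 subunit, had 44, 51 and 50 counts in Input control, 54, 47 and 55 in Input labelled shGpr151, 161, 168 and 124 in IP control and 118, 109 and 104 in IP labelled shGpr151. Its ratios were 0.05 (-0.23 to 0.33) and -0.21 (-0.48 to 0.08), and neither was resolved from 0.

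The supernumerary genes of complex III were all on the Input side. Uqcr10, a small subunit that spans the membrane, had 3442, 3342 and 3361 counts in Input control, 3012, 3065 and 3024 in Input labelled shGpr151, 951, 949 and 898 in IP control and 625, 673 and 646 in IP labelled shGpr151. Its log2 ratio was -3.45 (-3.52 to -3.39) in control libraries and -3.52 (-3.59 to -3.45) in the others. Uqcr11 had 2687, 2660 and 2793 counts in Input control, 2260, 2159 and 2237 in Input labelled shGpr151, 1053, 1042 and 1092 in IP control and 741, 753 and 807 in IP labelled shGpr151, with ratios of -2.95 and -2.82. Uqcrc1 and Uqcr10, which end up in 1 complex at 1 copy each per monomer, differed by 5.23 in log2 IP/Input ratio in the control libraries and by 4.73 in the others.

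In complex V the F1 head genes had the highest ratios. Atp5b, the catalytic beta subunit, had 196, 204 and 212 counts in Input control, 194, 190 and 155 in Input labelled shGpr151, 1558, 1468 and 1444 in IP control and 1212, 1233 and 1215 in IP labelled shGpr151. Its log2 IP/Input ratio was 1.27 (1.15 to 1.40) in control libraries and 1.47 (1.34 to 1.61) in those labelled shGpr151. Atp5a1, the alpha subunit, had 91, 81 and 87 counts in Input control, 97, 93 and 71 in Input labelled shGpr151, 748, 735 and 754 in IP control and 559, 563 and 570 in IP labelled shGpr151, and ratios of 1.51 (1.33 to 1.71) and 1.41 (1.22 to 1.60). The alpha and beta genes, which form the alternating ring of the F1 head, thus had like ratios.

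Atp5e, the small epsilon subunit of the central stalk, was at the other end. It had 2992, 3004 and 3118 counts in Input control, 2622, 2551 and 2560 in Input labelled shGpr151, 827, 867 and 830 in IP control and 540, 531 and 593 in IP labelled shGpr151. Its log2 ratios were -3.45 (-3.51 to -3.38) and -3.51 (-3.58 to -3.43), so that it differed from Atp5b by 4.72 and 4.98. Expressed without any scaling between libraries, Atp5e made up 93.7% of the counts of Atp5e and Atp5b together in Input control (exact binomial interval 93.2% to 94.2%) and 36.1% in IP control (35.0% to 37.2%). The gamma gene Atp5c1, the rotating shaft, lay between them, with ratios of -0.55 and -1.18.

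Complex II, whose 4 core subunits form no large accessory shell, had core genes around or above 0, except Sdhb. Sdhd, a membrane anchor, had 32, 29 and 33 counts in Input control, 44, 47 and 45 in Input labelled shGpr151, 247, 221 and 258 in IP control and 204, 195 and 185 in IP labelled shGpr151. Its log2 IP/Input ratios were 1.35 (1.04 to 1.68) and 0.81 (0.54 to 1.09). The other anchor, Sdhc, had ratios of 1.01 (0.74 to 1.28) and 0.86 (0.60 to 1.12), and was just past 2-fold in control libraries, a call lost without Input control column 1 or 2 or IP control column 3 (0.82 to 1.23 over single columns left out). Sdha, the flavoprotein that oxidises succinate, had 38, 48 and 40 counts in Input control, 27, 27 and 30 in Input labelled shGpr151, 121, 119 and 119 in IP control and 70, 100 and 90 in IP labelled shGpr151, and its ratios of -0.09 (-0.38 to 0.22) and 0.34 (-0.02 to 0.71) were not resolved from 0. Sdhb, the iron-sulfur subunit, was slightly on the Input side in control libraries (-0.17, interval -0.29 to -0.05) and more so in those labelled shGpr151 (-0.90, -1.02 to -0.79).

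**Figure D2:**
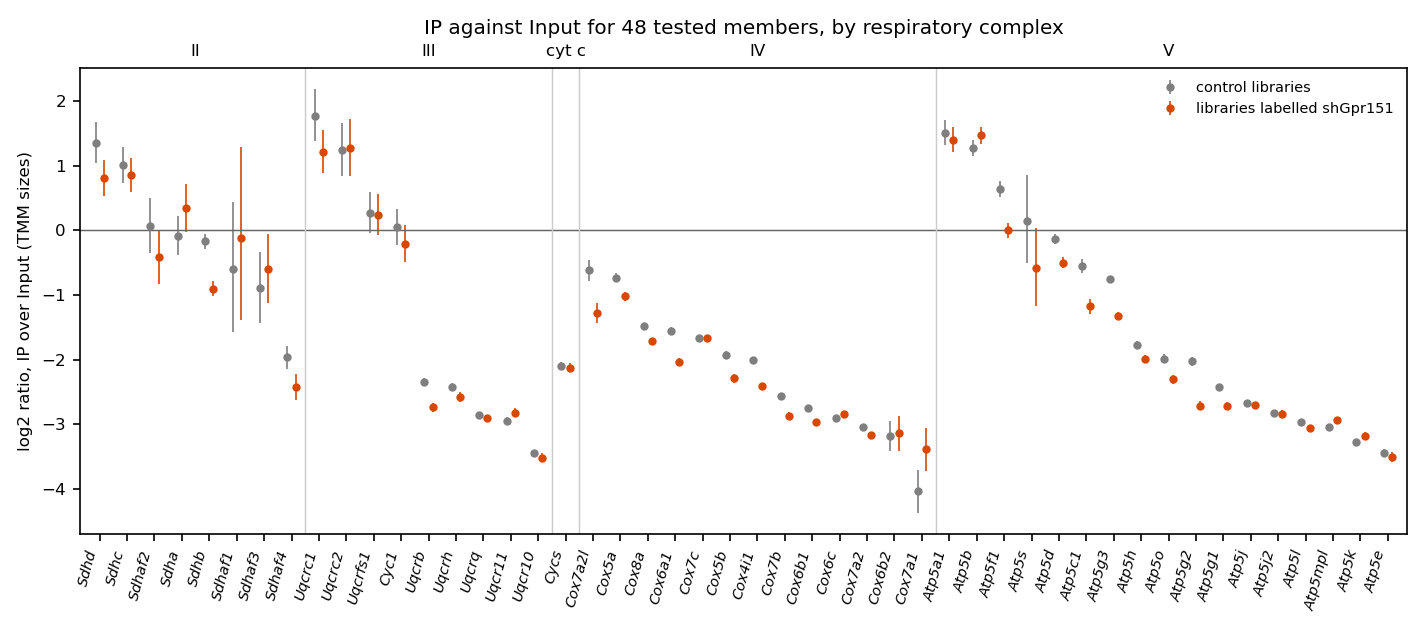
Log2 ratio of IP over Input (y axis, TMM sizes) with 95% counting intervals for the 48 tested members, grouped by complex and ordered by the control value, in grey for control libraries and red for libraries labelled shGpr151. Core genes such as Uqcrc1 (1.78 in control) and Atp5a1 (1.51) stand at the top of their complexes, small subunit genes such as Uqcr10 (-3.45) and Atp5e (-3.45) at the bottom, and all complex IV genes lie below 0.

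All 13 tested complex IV genes had ratios below 0 in both treatments, and 11 of them in control libraries and 13 in those labelled shGpr151 were past 2-fold. The 3 catalytic core subunits of complex IV are made from mitochondrial DNA, so its nuclear genes all encode surrounding subunits. Cox4i1, the regulatory subunit IV, had 3294, 3198 and 3316 counts in Input control, 3678, 3491 and 3655 in Input labelled shGpr151, 2430, 2434 and 2530 in IP control and 1628, 1649 and 1691 in IP labelled shGpr151. Its log2 IP/Input ratios were -2.00 (-2.05 to -1.96) and -2.41 (-2.46 to -2.37). Cox5a, a subunit on the matrix side, had 950, 911 and 847 counts in Input control, 1054, 1059 and 1000 in Input labelled shGpr151, 1616, 1680 and 1632 in IP control and 1272, 1271 and 1221 in IP labelled shGpr151. At -0.73 (-0.80 to -0.66) and -1.02 (-1.09 to -0.95), it was among the complex IV genes nearest to 0.

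Cycs, the soluble carrier between complexes III and IV, had 1637, 1727 and 1690 counts in Input control, 1529, 1595 and 1531 in Input labelled shGpr151, 1199, 1255 and 1118 in IP control and 880, 880 and 852 in IP labelled shGpr151. Its log2 IP/Input ratios of -2.10 (-2.16 to -2.03) and -2.12 (-2.19 to -2.05) resembled those of the median complex IV gene, at -2.00 and -2.41.

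Over the 48 tested members, the median log2 IP/Input ratio was -1.85 in control libraries, with a range from -4.04 to 1.78. Of these, 6 members were higher in IP past 2-fold with an interval excluding 0 (Uqcrc1, Atp5a1, Sdhd, Atp5b, Uqcrc2 and Sdhc), and 28 were lower. Among all tested genes, 23.1% were higher and 25.1% lower by the same rule. Many members are abundant, so the 1351 tested genes with a mean of at least 100 CPM are a closer background: 23.2% of these were higher, 52.6% lower, and their median was -1.20. Of the 35 members in that range, 3 were higher and 25 lower, with a median of -2.02. In libraries labelled shGpr151 the members' median was -2.08, with 4 higher (Atp5b, Atp5a1, Uqcrc2 and Uqcrc1) and 32 lower, beside 25.7% and 26.5% of all genes and 21.9% and 56.8% of the abundant genes, whose median was -1.60 against -2.41 for the abundant members, of which 2 were higher and 29 lower. On library totals in place of TMM the members' medians were 0.32 and 0.12, with 20 and 18 members higher past 2-fold and 5 and 3 lower, so the direction of the list holds only relative to other genes.

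The hairpin comparison within IP gave small differences in 1 direction. The median log2 ratio, IP labelled shGpr151 over IP control, was -0.15 over the 48 members, with 40 below 0 and 8 above and a range from -0.31 to 0.44. Below 0 were also 4127 of all 8312 tested genes and 848 of the 1351 abundant genes. By the interval alone, 31 members were lower beyond counting error and 0 higher, beside 10.8% lower and 9.35% higher of all tested genes. In the abundant genes 39.2% were lower and 16.1% higher, with a median of -0.08. Of the 35 abundant members, 30 were lower and 0 higher with a median of -0.17, a larger share of lower calls. Such calls depend on counts as well as on the ratio. Cox6c, on 8826 IP control counts, was called lower at -0.11, whereas Cyc1, on 453, was not at -0.13. The abundant genes were not matched to the members in counts, and the part of depth in the larger share was not tested. Past 1.2-fold, the members had 0 higher and 2 lower (Sdhb and Atp5e), both among the 35 abundant members. Beside these stood 7.27% and 4.84% of all genes and 7.33% and 5.85% of the abundant ones. The differences were mostly under 1.2-fold, and there was no spread between samples to set them against. The edgeR quasi-likelihood test with Benjamini-Hochberg adjustment, run on the columns as if they were replicates, called 0 members higher and 26 lower, beside 3.72% and 5.02% of all tested genes.

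The lower members came from every complex. Sdhb had 669, 677 and 711 IP control counts against 447, 442 and 455 in IP labelled shGpr151, which is 485 against 409 CPM and a log2 ratio of -0.29 (-0.39 to -0.19). It passed 1.2-fold by a small margin and no longer did so without the third IP control column. Atp5e had a ratio of -0.27 (-0.36 to -0.18), which fell short of 1.2-fold without the second IP control column or without the first or second column of IP labelled shGpr151. Sdhaf4, which helps to mature the Sdha flavoprotein, had 140, 149 and 148 IP control counts against 92, 107 and 94 in IP labelled shGpr151, with a ratio of -0.25 (-0.47 to -0.03), an interval that took in 0 on total counts and when column 2 or 3 of IP control, or column 1 or 3 of IP labelled shGpr151, was left out. Cox4i1 was at -0.25 (-0.30 to -0.19), Cycs at -0.12 (-0.20 to -0.05) and Cox5a at -0.06 (-0.12 to -0.00), an interval that took in 0 when column 2 or 3 of either library was left out.

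The genes with the highest IP/Input ratios, and Cyc1, were not resolved from 0 in this comparison. Atp5b was at 0.04 (-0.02 to 0.10), Atp5a1 at -0.08 (-0.17 to 0.02), Uqcrc1 at 0.06 (-0.11 to 0.24), Uqcrc2 at -0.06 (-0.27 to 0.16) and Cyc1 at -0.13 (-0.33 to 0.08). Atp5b was higher beyond counting error on total counts, at 0.08, and without IP control column 1. The median was -0.01 for the 4 core genes of complex III against -0.19 for its 5 supernumerary genes, and -0.02 for the F1 head against -0.16 for the membrane supernumerary genes. Sdha was at -0.14 (-0.37 to 0.10). Cox7c, one of the most counted members, with 6862, 6715 and 6724 IP control counts against 5533, 5377 and 5504 in IP labelled shGpr151, was at 0.02 (-0.01 to 0.05), and was higher beyond counting error on total counts, at 0.06, and without column 2 of IP labelled shGpr151. The highest values, 0.44 for Sdhaf3 (-0.03 to 0.91) and 0.40 for Cox7a1 (-0.02 to 0.83), rest on under 100 counts a library. Each was called higher when single columns were left out, Sdhaf3 without the third column of either library and Cox7a1 without the second IP control column or the first of IP labelled shGpr151.

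Other features of the IP libraries moved with this comparison. The IP library labelled shGpr151 was the shallowest of the 4. Of 8 fibroblast markers 7 were in the table (Pdgfra was not), and their summed level was 1191 CPM in IP control and 1453 in IP labelled shGpr151, with 7 of 7 above 0 in IP and 7 of 7 below 0 in Input, where the sums were 309 and 274. The summed satellite glia markers (9 of 9 in the table) differed less, at 5637 and 5450 CPM in IP and 5820 and 5395 in Input. The 17 sensory neuron markers summed to 19009 and 18412 CPM in IP and 1238 and 1405 in Input. The IP sums include Uchl1, at 8096 and 7480 CPM, whereas 9 of the 17 had IP ratios above 0 and 8 below, with a median of 0.04. The Input sums include Uchl1, at 583 and 801 CPM, whereas 11 of the 17 had Input ratios below 0, among them Prph at -0.43 and Snap25 at -0.75. Each marker in the table had at least 1 count in every column, as did every gene listed there. The part of these in the members' ratios was not tested. In such bulk libraries, fewer cells of a type and less RNA per cell cannot be told apart.

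**Figure D3:**
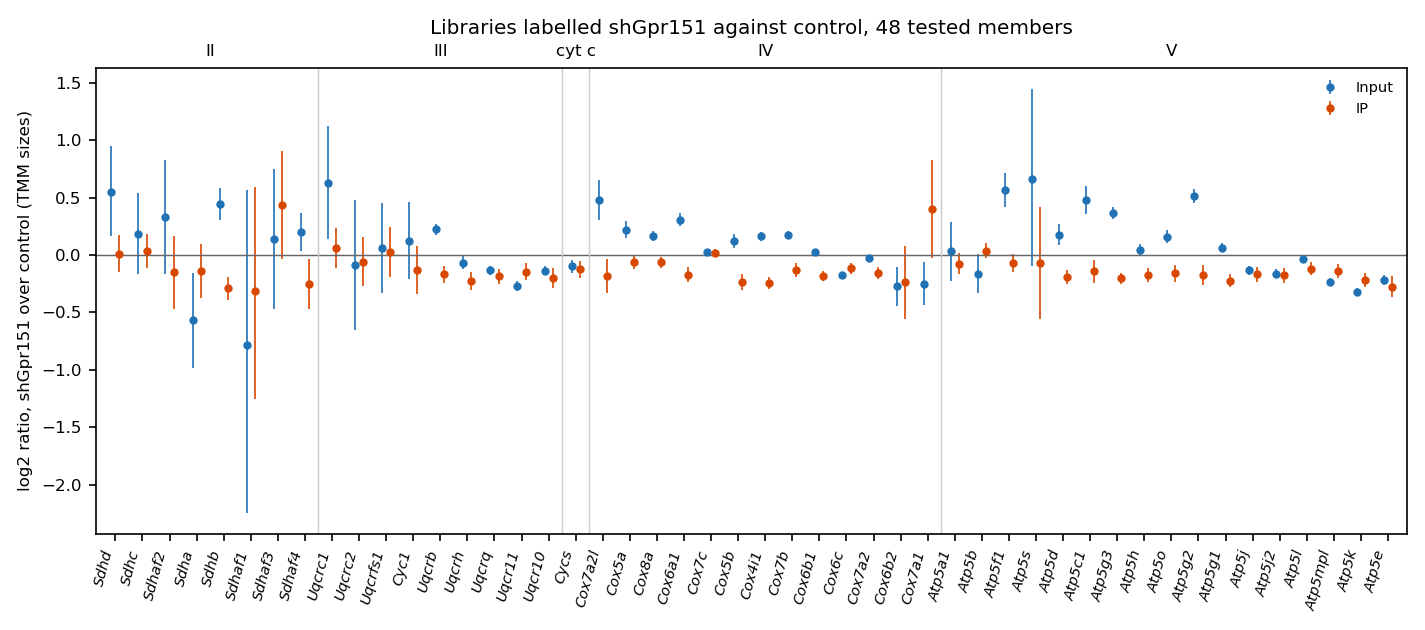
Log2 ratio of libraries labelled shGpr151 over control (y axis, TMM sizes) with 95% counting intervals for the 48 tested members, in blue for Input and red for IP, in the gene order of the IP/Input plot. IP values form a band just below 0 (median -0.15), whereas Input values spread to both sides, with Atp5f1 at 0.57 and Atp5k at -0.32.

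Within Input the members did not move in 1 direction. The median log2 ratio, Input labelled shGpr151 over Input control, was 0.06, with 29 members above 0 and 19 below. Above 0 were 3773 of all 8312 tested genes and 672 of the 1351 abundant genes. Beyond counting error, 21 members were higher and 15 lower. Among all tested genes 11.6% were higher and 13.1% lower, and among the abundant genes 35.2% and 31.7%. Past 1.2-fold, 9 members were higher (Uqcrc1, Atp5f1, Sdhd, Atp5g2, Atp5c1, Cox7a2l, Sdhb, Atp5g3 and Cox6a1) and 4 lower (Sdha, Atp5k, Cox6b2 and Uqcr11), beside 9.62% and 11% of all genes and 24.1% and 21.9% of the abundant genes. The 35 abundant members had 7 higher and 2 lower past 1.2-fold, so the higher share was near that of abundant genes and the lower share under it.

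Genes of 1 complex differed in sign here. Atp5f1 had 217, 202 and 200 counts in Input control and 285, 311 and 309 in Input labelled shGpr151, a log2 ratio of 0.57 (0.42 to 0.72). Atp5k, a small membrane subunit that helps to hold ATP synthase dimers, had 5612, 5668 and 5795 counts in Input control and 4483, 4426 and 4576 in Input labelled shGpr151, a ratio of -0.32 (-0.35 to -0.29). All 4 membrane supernumerary genes were lower beyond counting error (median -0.20) and all 3 c ring genes higher (median 0.37). Of the former, Atp5l, at -0.04, was not resolved from 0 on total counts, with RLE size factors, or without column 1 or 3 of Input control or column 1 of Input labelled shGpr151. Atp5b was at -0.16 (-0.33 to 0.01), not resolved from 0.

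In complexes II and III the largest Input differences were in genes with few counts. Uqcrc1 was at 0.63 (0.14 to 1.13) and Sdhd at 0.55 (0.16 to 0.95), whereas Sdha was at -0.56 (-0.98 to -0.15). Sdha and Sdhb, whose proteins form the soluble arm of complex II, thus had Input ratios of opposite sign, with Sdhb at 0.45 (0.31 to 0.58) on 258, 256 and 252 control counts against 338, 338 and 352 with the shGpr151 label. The Uqcrc1 call was lost without the third Input control column, and that of Uqcr11 (-0.27, -0.32 to -0.22) without that column or the second column of Input labelled shGpr151. In complex IV, Cox4i1 was at 0.16 (0.12 to 0.20), Cox5a at 0.22 (0.15 to 0.30) and Cox6b2, an isoform best known from testis, at -0.27 (-0.45 to -0.10) on 212, 195 and 207 against 193, 163 and 145 counts, a call lost when single columns were left out.

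The hairpin ratio in IP minus that in Input asks whether the 2 differ in 1 gene. Its median over the members was -0.18, beside 0.06 for all genes and -0.08 for the abundant genes, and 18 members were lower past 1.2-fold and 1 higher (Cox7a1), beside 12.1% and 11.5% of all genes and 33.7% and 21.7% of the abundant genes. Of the 35 abundant members 15 were lower and 0 higher, the former not far from the share of abundant genes. The lowest values among genes with an interval excluding 0 were those of Sdhb at -0.73 (Wald interval -0.90 to -0.57), Atp5g2 at -0.69 (-0.79 to -0.58) and Cox7a2l at -0.66 (-0.89 to -0.43). In all 3 the Input ratio was above 0.4 and the IP ratio below 0, so the larger part of the difference lay in Input. The highest were Cox7a1 at 0.65 (0.20 to 1.10), Atp5b at 0.20 (0.02 to 0.38) and Uqcr11 at 0.13 (0.04 to 0.22). The intervals of Atp5b and Uqcr11 took in 0 with RLE size factors (0.16 and 0.08). They also did so for Atp5b without column 3 of Input control, Input labelled shGpr151 or IP control, and for Uqcr11 without column 3 of IP labelled shGpr151.

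The genes Atp5g1, Atp5g2 and Atp5g3, encode the same mature c subunit with different mitochondrial targeting peptides, so their shares of the summed counts can be compared between libraries without a scaling factor. The shares are of counts and not per length. The sources used here do not say how reads common to these genes or to their processed pseudogenes were assigned, a limit that also holds for the other Atp5 and Cox genes. Atp5g1 had 3562, 3505 and 3553 counts in Input control, 3617, 3651 and 3676 in Input labelled shGpr151, 2008, 1959 and 1993 in IP control and 1398, 1353 and 1321 in IP labelled shGpr151. In the same order Atp5g2 had 1240, 1187 and 1276 counts, then 1723, 1768 and 1726, then 919, 939 and 893, then 663, 599 and 685. Atp5g3 had 1615, 1728 and 1782, then 2203, 2141 and 2160, then 3010, 3141 and 3047, then 2113, 2108 and 2157 counts.

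The IP libraries had another mix of c subunit genes than the Input libraries. Atp5g1 held 54.6% of the c subunit counts in Input control and 33.3% in IP control, whereas Atp5g3 held 26.4% and 51.4%, and Atp5g2 19.0% and 15.4%. Between treatments the IP mix differed by no more than counting error, with Atp5g1 at 39.3% of the Atp5g1 and Atp5g3 counts in IP control (exact binomial interval 38.5% to 40.1%) and at 39.0% in IP labelled shGpr151 (38.0% to 39.9%). The Input mix differed: the same share was 67.5% in Input control (66.7% to 68.2%) and 62.7% in Input labelled shGpr151 (62.0% to 63.4%). Each c ring gene was lower in IP labelled shGpr151 by a similar amount, with log2 ratios of -0.22 for Atp5g1, -0.17 for Atp5g2 and -0.20 for Atp5g3, and higher in Input by unequal amounts, 0.06, 0.52 and 0.37.

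**Figure D4:**
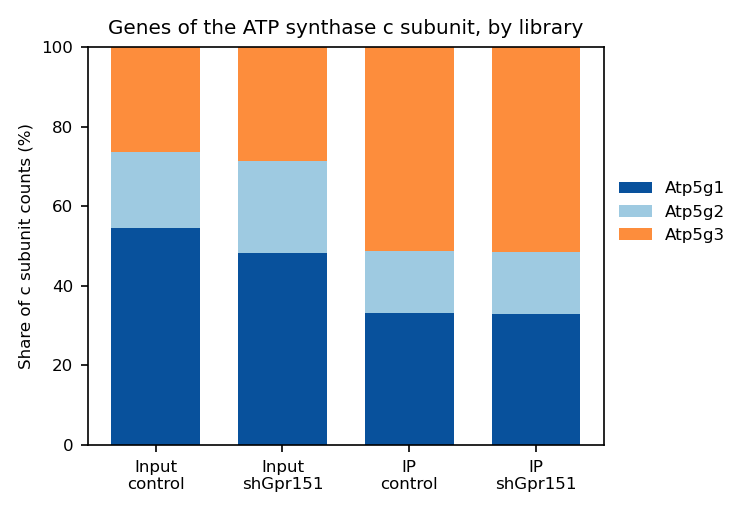
Share of the summed Atp5g1, Atp5g2 and Atp5g3 counts (y axis, percent, bars from 0) held by each gene in the 4 libraries. Atp5g3 holds 51.4% in both IP libraries against 26.4% and 28.7% in the Input libraries, where Atp5g1 is the largest part.

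Among the isoforms of complex IV subunits, Cox7a2l, which helps to join complexes III and IV into supercomplexes, had 164, 141 and 154 counts in Input control, 198, 209 and 224 in Input labelled shGpr151, 281, 311 and 311 in IP control and 206, 219 and 211 in IP labelled shGpr151. Relative to its paralog Cox7a2, it held 2.16% of the pair's counts in Input control (1.97% to 2.36%) and 3.04% in Input labelled shGpr151 (2.81% to 3.29%), but 10.6% in IP control (9.95% to 11.3%) and 10.4% in IP labelled shGpr151 (9.69% to 11.2%). As with the c ring, the IP libraries differed from Input and not resolvably from each other.

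Cox7a1, the form of subunit VIIa known from heart and skeletal muscle, had 182, 184 and 139 counts in Input control, 130, 138 and 151 in Input labelled shGpr151, 25, 39 and 29 in IP control and 27, 37 and 34 in IP labelled shGpr151. Its log2 IP/Input ratio of -4.04 (-4.37 to -3.72) in control libraries was the lowest of all members, and it was -3.39 (-3.72 to -3.07) in the others. None of 9 muscle and heart markers (Acta1, Ckm and others) was in the table. The lowest value listed there is 1, so this absence does not show that a marker was without counts in every column. Cox6b2 held 2.74% of the Cox6b1 and Cox6b2 counts in Input control and 2.05% in IP control. Cox4i2, the form known from lung and low oxygen, had 28, 26, 20 and 16 counts in the 4 libraries (Input control, Input labelled shGpr151, IP control, IP labelled shGpr151), at most 0.321% of the Cox4 counts, and Cox6a2 had 10, 17, 18 and 15. Cox8a was the only Cox8 gene listed, with IP/Input ratios of -1.48 and -1.71.

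The pattern of IP/Input ratios over members was alike in the 2 treatments. Across the 48 members the control and shGpr151-labelled ratios had a Pearson r of 0.979 and a Spearman rho of 0.982. The hairpin ratios in IP and Input were hardly related, with r of 0.116 and rho of 0.149, and r of -0.056 over the 35 members with at least 200 counts in each library. These are correlations across genes, which are not independent replicates, and all points of a comparison come from the same libraries.

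Related genes that the symbol rule leaves out are given for context. Atpif1, the inhibitor that keeps ATP synthase from running backward, had 3568, 3465 and 3516 counts in Input control, 3178, 3103 and 3221 in Input labelled shGpr151, 2115, 2071 and 2067 in IP control and 1467, 1436 and 1478 in IP labelled shGpr151. Its ratios were those of a small subunit gene: -2.35 and -2.41 for IP over Input, -0.19 (-0.24 to -0.13) for the hairpin comparison in IP and -0.13 (-0.17 to -0.09) in Input. The 37 tested nuclear genes of complex I had medians of -2.07 and -2.39 for IP over Input, -0.14 for the hairpin in IP and 0.04 in Input, close to the members' own medians. The 6 listed mitochondrially encoded genes of complexes III to V differed from these, with medians of -5.24 and -4.86 for IP over Input. For the hairpin their medians were 0.17 in IP (5 of 6 above 0) and -0.25 in Input (6 of 6 below 0). Beyond counting error, 3 of the 6 were higher in IP, beside 9.35% of all tested genes and 16.1% of the abundant ones. In Input 6 were lower, beside 13.1% and 31.7%.

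Assembly factors build the complexes but are not part of them. Of 41 on the list used here 31 were tested, with medians of -1.85 and -2.09 for IP over Input, and 0 were higher past 2-fold in control libraries and 20 lower, against 3 and 21 in those labelled shGpr151, beside 23.1% higher and 25.1% lower, and 25.7% and 26.5%, of all tested genes. The lowest-error examples were Uqcc2, a complex III factor, at -3.31 and -3.47, and Cox17, the copper chaperone of complex IV, at -3.44 and -3.59. On the IP side in the libraries labelled shGpr151 were Taco1 at 1.48 (0.24 to 3.01) and Cox18 at 1.37 (0.12 to 2.91). In the hairpin comparison within IP, 0 were higher and 2 lower past 1.2-fold, beside 7.27% and 4.84% of all genes: Higd2a, a complex IV factor, at -0.33 (-0.46 to -0.21) and Surf1 at -0.30 (-0.53 to -0.08). Within Input 5 were higher, among them Cox16 at 0.42 (0.28 to 0.56) and the ATP synthase factor Fmc1 at 0.60 (0.43 to 0.77), and 2 lower, Pet100 at -0.32 (-0.41 to -0.24) and Atpaf2 at -0.38 (-0.63 to -0.13), beside 9.62% and 11% of all genes. For the IP minus Input difference 2 were higher, Pet100 at 0.39 and Coa4 at 0.44, and 6 lower, among them Higd2a at -0.40 and Coa3 at -0.29, beside 11.5% and 12.1% of all genes.

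Regulators of respiratory gene expression were mostly low in counts, and 15 of 17 were tested. Their median was -0.20 and -0.21 for IP over Input, with 4 higher and 2 lower past 2-fold in control libraries and 4 and 4 in the others, beside 23.1% and 25.1%, and 25.7% and 26.5%, of all tested genes, so the higher shares were near the background. Gabpa, the DNA-binding part of GABP, was on the IP side at 1.36 (0.56 to 2.28) and 2.00 (1.06 to 3.11), as was the matrix protease gene Lonp1 at 1.08 (0.51 to 1.70) and 1.33 (0.71 to 2.02). Slirp, which stabilises mitochondrial mRNA, was on the Input side at -3.07 and -3.08, as was Esrra, the gene of a nuclear receptor, at -2.22 (-3.35 to -1.14) in control libraries. In the hairpin comparison within IP 2 were higher past 1.2-fold and 0 lower, beside 7.27% and 4.84% of all genes: Gabpb1, with 19 and 34 counts, at 1.17 (0.32 to 2.06) and Esrra, with 13 and 23 counts, at 1.15 (0.11 to 2.25). Within Input 1 was higher and 0 lower, beside 9.62% and 11% of all genes: the matrix protease gene Clpp at 0.57 (0.32 to 0.82), whose IP/Input ratio was -0.69 in control libraries and -1.44 in the others. For the IP minus Input difference 1 was higher and 1 lower, beside 11.5% and 12.1% of all genes: Gabpb1 was at 1.88 (0.21 to 3.55) and Clpp at -0.75 (-1.07 to -0.43). Nrf1 was at -0.01 (-0.96 to 0.92) in IP, an interval too wide to resolve a change smaller than those bounds.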

How the data were processed

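The authors deposited 1 table of raw counts, whole numbers for each gene in 12 columns (4 groups of 3), and its lowest value is 1. Per the labels' protocols, libraries were made by PCR of cDNA for nanopore sequencing with a barcoding kit. The builds mm39 and GRCm39 and the tools minimap2 and Salmon stand in the submitters' processing notes, without versions or roles. Symbols were matched for 9061 of 9073 IDs. Strand use in counting was not given.

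From these counts, edgeR 4.0.16 (R 4.3.3) gave TMM sizes and the low-count filter (filterByExpr, minimum count 10). The counts of a library, divided by its summed TMM sizes, were compared as log2 ratios. Their 95% intervals are conditional binomial (Clopper-Pearson, exact), with Wald intervals for the IP minus Input difference. CPM refers to library totals. A member was called where the interval excluded 0 and, separately, past 1.2-fold (hairpin) or 2-fold (IP over Input). On simulated Input counts, 200 of 200 genes changed 2-fold were recovered and 96.1% of intervals held the true value (8312 genes). This check of the intervals held no changes of 1.2-fold, no IP libraries and no IP minus Input difference. It says nothing of variation between samples. Columns were not paired by number: 2 of 18 same-numbered pairs correlated above 0.1.

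Named by rule were Sdha, Uqcrc1, Cyc1, Cycs, Cox4i1, Cox5a, Atp5b, Atpif1, the isoform families, and the 3 largest ratios per direction and comparison with at least 50 counts and an interval excluding 0. From each pathway list at most 2 genes per direction were named. Marker lists not described in the results were those of Schwann cells (summed CPM 229 and 201 in Input, 1394 and 1311 in IP, control first) and macrophages (466 and 495, 539 and 562). Members and lists were chosen with earlier results of these data known. Alternatives were other scalings and filters, column tests in edgeR and DESeq2 1.42.0, larger folds and each column left out.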

Additional observations from a re-analysis of the deposited data

Results flagged for a closer look

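The following values are listed because the hairpin difference was unequal in IP and Input by its interval on counting error, which has no replicate check. Of the 48 tested members, 18 had an IP ratio lower than the Input ratio past 1.2-fold and 1 had a higher one, beside 12.1% and 11.5% of all tested genes and 33.7% and 21.7% of those with a mean of at least 100 CPM. The largest such differences (log2 ratio in IP minus log2 ratio in Input) were -0.73 for Sdhb, the iron-sulfur subunit of complex II, -0.69 for Atp5g2, a c ring gene, -0.66 for Cox7a2l, the supercomplex factor, and 0.65 for Cox7a1, the muscle form of subunit VIIa, which had under 100 counts in each IP library.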

How the results depend on the processing

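With each group as 1 library, depth limits what can be said of genes with few counts, such as Sdha or Uqcrc2. The scale between IP and Input decided direction: on total counts the members' median IP/Input ratio was 0.32 (control) and 0.12 (labelled shGpr151), with 20 and 18 higher and 5 and 3 lower past 2-fold, and 10 of 34 and 9 of 36 called members took the other direction. On total counts the IP hairpin comparison gave 4 members higher beyond counting error, 2 higher and 0 lower past 1.2-fold, and Input gave 2 lower. RLE size factors gave 4 lower past 1.2-fold in IP, 2 lower in Input, and a median IP/Input ratio of -2.15 in libraries labelled shGpr151. A mean of at least 20 counts moved the IP/Input medians to -1.95 and -2.21. Past 1.5-fold, 0 members were lower in IP, 1 higher and 0 lower in Input, and 5 lower in the difference. Past 3-fold, 1 (control) and 0 (labelled shGpr151) were higher in IP than in Input.

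On the columns, edgeR gave 0 members higher in the difference, with the replicate block also 0, and DESeq2 gave 0 there and, in Input, 9 lower and 1 lower past 1.2-fold. With the replicate block edgeR called 0 higher and 26 lower in IP and 16 higher and 12 lower in Input, against 0, 26, 17 and 12 without it. Limited to members with 200 or more counts in each library, an alternative chosen after seeing the data, Input had 2 lower, the IP/Input medians were -2.02 and -2.42 with 2 and 2 higher, and the difference had 0 higher. Leaving out single columns gave, past 1.2-fold, 0 to 1 higher and 1 to 3 lower in IP, 2 to 4 lower in Input, and 1 to 2 higher in the difference, and beyond counting error 1 to 1 higher in IP. Cox5a lost its 2-fold IP/Input call in libraries labelled shGpr151 without Input column 2 or IP column 3, and its call in the difference without Input control column 3; Uqcrc1 lost its call in the difference without that column, or without column 2 of Input or column 3 of IP labelled shGpr151. The cause of these changes was not tested. The relation to protein length was not run.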
